A study of Mus musculus with 14 samples.

Results

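Cytosolic ribosomal protein genes encode the proteins of the ribosomes that translate nuclear messages in the cytoplasm. They were taken here as the gene rows whose symbol is Rps or Rpl followed by a number and an optional a, l or x and a further number, together with Rpsa, Rplp0, Rplp1 and Rplp2, with at least 10 counts in 1 or more libraries. Of 50508 gene rows, 88 carried such a symbol and 86 passed. The 2 that did not, Rpl10l and Rps12l1, held 0 counts in every library, and the members nearest the limit, Rpl3l and Rpl39l, reached 15 counts in their highest library. The 86 members were 77 canonical genes, 31 of the small (40S) subunit with Rpsa and 46 of the large (60S) subunit with the 3 stalk genes Rplp0, Rplp1 and Rplp2. The other 9 were the paralogues Rpl3l, Rpl7l1, Rpl22l1, Rpl39l and Rps27l, and 4 rows annotated as processed pseudogenes, that is, copies of a message inserted in the genome (Rpl6l, Rps3a2, Rps3a3 and Rps4l). The symbol rule did not take in Rack1, Fau and Rpl36al, which also encode cytosolic ribosomal proteins.

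The values came from bulk RNA sequencing of sorted mouse T cells, with 5 groups of 2 libraries each, in 2 count tables. CD8SP are conventional CD8 single-positive thymocytes. ILTCkP are thymic progenitors of ILTCk, that is, of αβ T cells that are innate-like and have killer function. Both came from mice labelled C57BL/6. The thymic gate in the labels, as far as their protocol text runs, took cells without CD1d/PBS-57 tetramer binding and negative or dim for CD4 and CD8α. It is read here as the gate of ILTCkP, since CD8 single-positive cells bear CD8. Cd8a, which encodes CD8α, was at 2116 and 1842 CPM in CD8SP. CPM are counts scaled to a fixed library total, here with that total adjusted by a TMM factor for each library. In ILTCkP it was at 14.6 and 34.8 CPM. The remaining groups are PD1+ Tconv (conventional PD-1-bearing T cells), NK1.1+ ILTCk and NK1.1- ILTCk, and their model is labelled retrogenic, meaning mice in which the T cell receptor is given to blood stem cells with a retrovirus. Both the PD1+ Tconv and the NK1.1+ ILTCk sorts took tumour-infiltrating CD45+ TCRγδ-negative TCRβ+ CD4-negative CD8α+ cells, PD-1+ and NK1.1-negative in the former and PD-1-negative and NK1.1+ in the latter. The gate and tissue of the NK1.1- ILTCk libraries and the tumour model, receptor, age and sex of these mice were not stated in the labels used here. The sample titles name these cells ILTCk where their characteristics say ILTCkP, and the titles were followed. Their table is called the tumour table below. The labels speak of biological replicates without saying that they came from separate animals, so p-values measure the spread between these libraries.

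Each ribosome holds 1 copy of most of these proteins, and their genes are transcribed at high levels in growing cells. Their messages belong to the TOP class: they start with a C followed by a run of pyrimidines (C or T), through which the growth-controlling kinase mTORC1 and the RNA-binding protein Larp1 regulate their translation. T cells make more ribosomes when they are activated and divide. Loss of Rpl22, a dispensable 60S protein, is known to block αβ T cell development in the mouse, and the Rpl22 protein represses its paralogue Rpl22l1.

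The TOP run is shown first, because it is the sequence feature these genes are known for. Promoter sequences were found in RefSeq for 62 of the 86 members, of which 57 were canonical. The windows below are from GRCm38.p6 and hold the 45 bases before the annotated start and the first 12 transcribed bases, 5′ to 3′ on the gene's strand. Capitals mark the run of C and T that begins with a C at the start, and in Rpl22l1 a TATAAA motif. The first 5 genes show the run, and 2 paralogues are shown beside them.
Rps27 (chr3:90213637-90213693, minus strand): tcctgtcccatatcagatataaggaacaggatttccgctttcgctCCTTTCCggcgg
Rpl38 (chr11:114668535-114668591, plus strand): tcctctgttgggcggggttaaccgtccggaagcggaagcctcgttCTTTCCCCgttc
Rps6 (chr4:86857356-86857412, minus strand): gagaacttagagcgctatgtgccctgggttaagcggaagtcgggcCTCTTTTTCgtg
Rps10 (chr17:27635233-27635289, minus strand): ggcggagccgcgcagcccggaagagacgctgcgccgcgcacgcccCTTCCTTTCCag
Rps18 (chr17:33955654-33955710, minus strand): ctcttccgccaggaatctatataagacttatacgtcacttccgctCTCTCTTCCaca
Rpl22l1 (chr3:28805463-28805519, plus strand): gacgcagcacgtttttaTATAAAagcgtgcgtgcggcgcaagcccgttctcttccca
Rpl7l1 (chr17:46782645-46782701, minus strand): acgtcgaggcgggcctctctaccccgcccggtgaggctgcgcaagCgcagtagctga

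The run covered 7 bases in Rps27, 8 in Rpl38, 9 in Rps6 and Rps18 and 10 in Rps10. A C at the annotated start followed by at least 4 pyrimidines stood in 12 of the 57 canonical genes (21.1%), against 2.49% of the 27025 symbols with a promoter entry. A count at the exact annotated base is strict, since annotated starts can lie some bases off. A longer run of C and T that begins with a C near the start stood in 27 of 57 (47.4%), against 14.4% of all symbols. CCGGAAG, a motif of ETS factors, was found on either strand in 23 of 57 (40.4%) against 9.12% of all symbols. AAGATGGC, the core of the motif of YY1, stood on either strand in 4 of 57 (7.02%) against 2.88%, and CCAAT on either strand in 18 of 57 (31.6%) against 37.9%. Both were searched, like CCGGAAG, over the whole promoter entry around the start, and each motif was counted whether or not it overlapped another. TATAAA on the gene's strand between 50 and 6 bases before the start was found in 0 of 57, against 2.73% of all. The data give levels and not binding, so these are descriptions of the letters. The 12 genes with the run at the start had a median log2 fold change of 0.02 in ILTCkP against CD8SP, and the 45 without it -0.15. The 45 take in genes such as Rpl27a, with a run of 16 pyrimidines that begins with a T. They cannot be read as genes without a TOP run. In the tumour table the medians with and without it were -0.44 and -0.33 for NK1.1+ ILTCk against PD1+ Tconv, -0.35 and -0.23 for NK1.1- ILTCk against PD1+ Tconv, and -0.03 and -0.11 between the ILTCk groups.

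The libraries held 16530085 to 32097301 counts. In the tumour table the labels' own markers fell on the right side, Klrb1c by a narrower margin than Pdcd1. Pdcd1, which encodes PD-1, was at 753 and 518 CPM (TMM-scaled, as are the sums below) in PD1+ Tconv and at most 29.2 CPM in the other 4. Klrb1c, which encodes NK1.1, was highest in NK1.1+ ILTCk (309 and 68.6 CPM). It was at 39.5 and 2.35 CPM in PD1+ Tconv and 29.9 and 12.4 CPM for NK1.1- ILTCk. RNA of other cells moved with the groups there. The summed level of 10 macrophage markers was 217 and 1318 CPM in PD1+ Tconv, 3741 and 3202 CPM for NK1.1- ILTCk and 8788 and 24002 CPM for NK1.1+ ILTCk, with all 10 detected in each, while in the thymic libraries it was 21.7 to 40.6. A list of 6 salivary and lacrimal gland genes, of which at most 1 was at 0 in a tumour-table library, summed to 283091 CPM in PD1+ Tconv 2 and 42321 in NK1.1- ILTCk 1, against 337 to 2021 in the other 4. The summed level of 6 mammary epithelium markers, all detected in each tumour-table library, was 2059 and 2261 CPM in PD1+ Tconv against 5947 to 9617 in the 4 ILTCk libraries, and 1.55 to 7.14 in the thymic libraries, with 2 or 3 of the 6 at 0. The 5 T cell genes listed, all detected in every library, summed to 4349 to 5975 CPM in the thymic libraries but to only 417 CPM in NK1.1+ ILTCk 2, with the next lowest sum, 741 CPM, from NK1.1- ILTCk 2. Every level in the tumour table is thus a level in a mixture, and the part of these cells in the results below was not tested. In bulk samples, fewer cells of a type and less RNA per cell cannot be told apart.

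Ribosomal protein genes took a steady, small share of the thymic counts and a larger, more variable share of the tumour table. The 86 genes held 3.09 and 3.06% of all counts in CD8SP and 3.02 and 2.76% in ILTCkP. In the tumour table they held 6.56 and 8.89% in PD1+ Tconv, 8.42 and 6.01% in libraries of NK1.1+ ILTCk, and 7.10 and 9.36% in those of NK1.1- ILTCk. All 6 tumour-table libraries lay above all 4 thymic ones, and within each table the groups came close or overlapped. Wilson 95% intervals, which cover counting error only, reached at most 0.0137 percentage points to either side, far less than the gap between replicates. With 2 libraries a group, an exact two-sided permutation test cannot go below 0.333, so shares were not tested. Tissue, mouse model and table change together between the 2 tables and cannot be told apart. The ratio of 60S to 40S counts was 1.32 and 1.29 in CD8SP, 1.50 and 1.33 in ILTCkP, and 1.18 to 1.27 in the tumour table. ILTCkP 1 was thus the library furthest from the rest in the balance of the subunits.

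**Figure D1:**
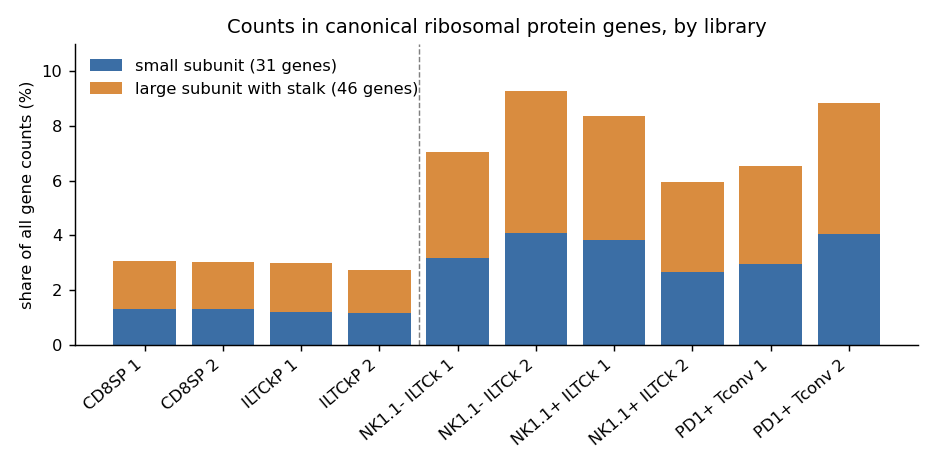
Share of all gene counts (%) held by the 31 canonical small-subunit genes (blue) and the 46 canonical large-subunit genes with the stalk genes (orange), 1 bar a library; the dashed line separates the thymic from the tumour table. All 6 tumour-table bars are above the thymic ones, and replicates of 1 group in the tumour table differ by more than the group means do.

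ILTCkP were first compared with conventional CD8 thymocytes. No ribosomal protein gene differed at an adjusted p under 0.05: edgeR's quasi-likelihood test called 0 of 85 members tested, while it called 689 of 14634 genes (4.71%), 495 higher (3.38%) and 194 lower (1.33%) in ILTCkP. At an unadjusted p under 0.05 it gave 6 members, all lower in ILTCkP (7.06%), against 22.1% of all genes in both directions and 9.06% lower. The median log2 fold change of the members was -0.08 (quartiles -0.32 and 0.11), against 0.01 for all genes tested, and 53 of 85 were below 0 (62.4%, against 49.7% of all genes). Small-subunit genes had a median of -0.16, with 23 of 31 below 0, and large-subunit genes a median of -0.02, with 25 of 46 below 0. The groups did not overlap for 40 members lower in ILTCkP (47.1%, against 29.3% of all genes) and for 6 higher (7.06%, against 28.8%). Whether these shares differ from those of all genes was not tested, and no member passed the test gene by gene.

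The lowest log2 fold changes were those of the paralogue Rpl39l (-2.71, from very few counts), Rpl39, Rpl22l1 and the retrocopy Rps4l. All levels within a table, but for those per kilobase, were scaled by TMM. Rpl39, a very small protein at the exit of the tunnel through which the new chain leaves, was at 37.4 and 41.7 CPM in CD8SP. In ILTCkP it was at 7.33 and 22.4. Both ILTCkP libraries were below both CD8SP libraries, and ILTCkP 1 was far below ILTCkP 2. The log2 fold change was -1.41 ± 0.55 (SE; adjusted p 0.212). Rpl22l1 was at 53.5 and 59.6 CPM in CD8SP and at 9.58 and 33.8 in ILTCkP, again without overlap and with ILTCkP 1 lowest, with a log2 fold change of -1.38 ± 0.59 (adjusted p 0.245). Its partner Rpl22 stayed closer, at 134 and 137 CPM against 112 and 122 (-0.21 ± 0.21, adjusted p 0.598). Rpl35a, a large-subunit protein mutated in some patients with Diamond-Blackfan anaemia, was at 86.8 and 91.3 CPM in CD8SP and 41.7 and 58.6 in ILTCkP (-0.83 ± 0.27, adjusted p 0.156), the smallest p among the members.

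Among small-subunit genes Rps25, which some viral and cellular messages need for internal initiation, was at 225 and 224 CPM in CD8SP and 132 and 166 in ILTCkP (-0.59 ± 0.22, adjusted p 0.196). Rps27 was at 194 and 213 CPM against 114 and 151 (-0.62 ± 0.24, adjusted p 0.205), and Rps4x, the X-linked small-subunit gene, at 395 and 380 against 227 and 324 (-0.49 ± 0.25, adjusted p 0.304). In each of these the 2 CD8SP libraries nearly coincided and the ILTCkP libraries lay apart from each other. The paralogue Rpl39l, known mainly from testis, had 14 and 15 counts in CD8SP and 2 in each ILTCkP library, too few for a stable fold. Rps4l, a retrocopy of Rps4x, was at 5.93 and 4.78 CPM against 2.84 and 1.99 (-1.15 ± 0.48, adjusted p 0.233).

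On the higher side the differences were small. Rpl7l1, a paralogue of Rpl7, was at 186 and 175 CPM in CD8SP and 258 and 235 in ILTCkP (0.45 ± 0.20, adjusted p 0.269), while Rpl7 itself was at 632 and 592 against 378 and 538 (-0.42 ± 0.24, adjusted p 0.368). Rpl10, which completes the large subunit late in its assembly, had a log2 fold change of 0.22, Rpl3, which lies at the peptidyl transferase centre, one of 0.23, Rpl38, known for the translation of Hox messages, one of 0.24 and Rps3, at the entry of the message channel, one of 0.19. Rpl10, Rpl3, Rpl38 and Rps3 were named because their groups did not overlap, and none passed the test. The stalk genes, whose proteins recruit the elongation factors, and Rpsa showed one high library: Rplp0 was at 2197 and 2011 CPM in CD8SP, 3512 in ILTCkP 1 and 2085 in ILTCkP 2. Rplp1 (551 and 545, then 724 and 422), Rplp2 (381 and 374, then 490 and 314) and Rpsa (722 and 672, then 1099 and 676) had the same shape, with ILTCkP 1 above both CD8SP libraries. ILTCkP 2 was below both CD8SP libraries for Rplp1 and Rplp2 and between them for Rplp0 and Rpsa.

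**Figure D2:**
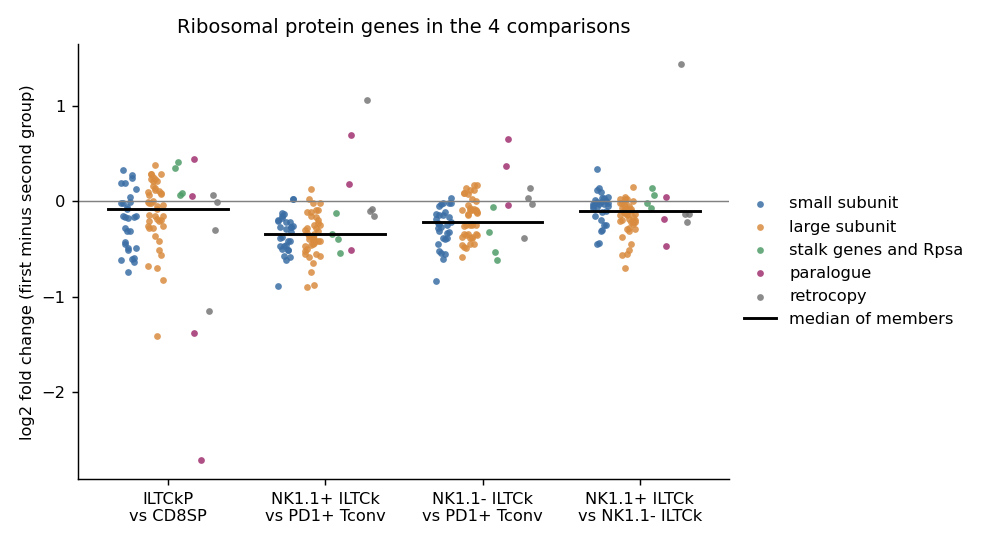
Log2 fold change of each member tested (points, coloured by class) in the 4 comparisons, first group minus second; the black lines are medians of the members. The medians are -0.08, -0.34, -0.22 and -0.10 from left to right, and no point passed an adjusted p of 0.05.

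ILTCkP 1 stood apart from ILTCkP 2 in a way that followed base composition. Over the 77 canonical genes the SD of the log2 difference from the CD8SP mean was 0.57 in ILTCkP 1 and 0.17 in ILTCkP 2, against 0.08 between the 2 CD8SP libraries. The difference in ILTCkP 1 went with the GC content of the reference transcript (Pearson's r = 0.65 over 77 genes of the same libraries, a description): the third of genes lowest in GC (41.3 to 50%) had a median of -0.46 and the third highest in GC (54.1 to 60.8%) one of 0.36. In ILTCkP 2 the 2 medians were -0.24 and -0.13 (r = 0.42), and 7 of 77 genes were above the CD8SP mean, against 39 of 77 in ILTCkP 1. The difference between the 2 ILTCkP libraries had an r of 0.64 with GC. It went from a Rpl39 level 3.06 times as high in ILTCkP 2 to a Rps10 level 0.559 times as high. The fold change between the groups had r = 0.66 with GC and r = -0.04 with transcript length, and the part of base composition in the result was not tested.

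Results with and without each ILTCkP library also differed. With ILTCkP 1 left out, edgeR called 3 members, all lower: Rpl22l1 (log2 fold change -0.73, adjusted p 0.0255), Rpl35a (-0.59, adjusted p 0.0320) and Rpl39 (-0.81, adjusted p 0.0263), among 2812 genes called in all (3.53% of members, against 17.9% of all genes). With ILTCkP 2 left out it called 43 members, 19 higher and 24 lower, among 7017 genes (50.6% of members, against 44.8% of all genes). Those higher had a median GC content of 55.6% and those lower one of 48.0%. They included Rplp0 (0.74), Rpl29 (0.74), Rps10 (0.68) and Rpsa (0.65) on the higher side and Rpl22l1 (-2.56), Rpl39 (-2.43), Rps15a (-1.34) and Rpl30 (-1.30) on the lower. In these fits the lone ILTCkP library is assumed to vary like the CD8SP libraries, which nearly coincide. Rpl22l1, Rpl35a and Rpl39 were below both CD8SP libraries in each ILTCkP library. This is not particular to them, since it held for 40 of the 85 members tested (47.1%, against 29.3% of all genes). With both ILTCkP libraries in the fit, Rpl39 and Rpl22l1 also passed with no filter on low counts (adjusted p 0.00654 and 0.00388) and with the replicate number as a block (adjusted p 0.0107 and 0.0101), and Rpl39 passed in DESeq2 (adjusted p 0.0491). These fits called 10.8, 15.1 and 13.6% of all genes, against 2.35, 2.35 and 1.18% of members.

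**Figure D3:**
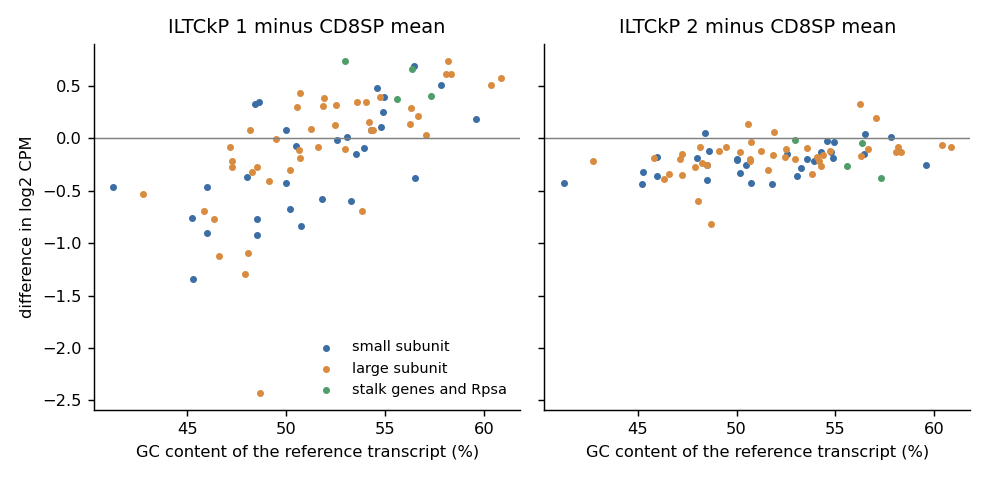
Difference in log2 CPM from the mean of the 2 CD8SP libraries for the 77 canonical genes (points) against the GC content (%) of the reference transcript, for ILTCkP 1 (left) and ILTCkP 2 (right). In ILTCkP 1 the differences run from negative at low GC to positive at high GC, with Rpl39 lowest, while in ILTCkP 2 most points lie slightly below 0.

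The second set of comparisons set the ILTCk groups against PD1+ Tconv and against each other. In none of the 3 was a ribosomal protein gene called, of 84 tested. The same test called 0 of 18091 genes in each (0% called). At an unadjusted p under 0.05 it gave 0 members in each, against 14.3% of all genes for NK1.1+ ILTCk and 11.9% for NK1.1- ILTCk against PD1+ Tconv, and 3.94% for NK1.1+ against NK1.1- ILTCk. DESeq2 called 0 members too, where it called 1269, 708 and 57 genes in all (7.01, 3.91 and 0.315%). Both comparisons with PD1+ Tconv share its 2 libraries.

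After TMM scaling the members lay lower in the ILTCk groups than in PD1+ Tconv, by less than the replicates of PD1+ Tconv differed. By their share of all counts, which this scaling does not enter, NK1.1- ILTCk had the higher mean (8.23% against 7.73% in PD1+ Tconv) and NK1.1+ ILTCk the lower (7.21%). That order depended on the total. With the 50 most abundant other rows taken out of it, the shares were 7.29 and 15.2% in PD1+ Tconv and 8.65 and 12.5% for NK1.1- ILTCk. PD1+ Tconv then had the higher mean. For NK1.1+ ILTCk they were 9.81 and 7.95%. The TMM factor of PD1+ Tconv 2, 0.748, was the lowest of the 6. In NK1.1+ ILTCk against PD1+ Tconv the median log2 fold change was -0.34, with 77 of 84 below 0 (91.7%, against 51.5% of all genes), but 17 of 85 without PD1+ Tconv 2. The groups did not overlap for 10 members lower (11.9%, against 20.8% of all genes) and 2 higher (2.38%, against 20.7%). In NK1.1- ILTCk against PD1+ Tconv the median was -0.22, with 69 of 84 below 0 (82.1%, against 52.2% of all genes), but 5 of 85 without PD1+ Tconv 2 and 28 of 86 without NK1.1- ILTCk 1, and 1 member lower and 1 higher did not overlap (1.19% each, against 22.7 and 23.1%). In NK1.1+ against NK1.1- ILTCk it was -0.10, with 66 of 84 below 0 (78.6%, against 49.4% of all genes) and again 1 member not overlapping each way (1.19%, against 18.9% lower and 18.6% higher). With the replicate number as a block that median was -0.03 and 45 of 84 were below 0 (53.6%), with limma-voom 54 of 84 were, and without NK1.1- ILTCk 2 only 11 of 86. Medians of the small subunit were -0.33, -0.25 and -0.03 and those of the large subunit -0.38, -0.19 and -0.13, in the same order.

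Replicates of a group lay far apart in the tumour table: 76 of the 77 canonical genes were higher in PD1+ Tconv 2 than in PD1+ Tconv 1, with a median ratio of 2.19. All 77 were higher in NK1.1- ILTCk 2 than in NK1.1- ILTCk 1, with a median ratio of 1.58, and in NK1.1+ ILTCk 16 were higher in replicate 2, with a median of 0.871. Rpl4 was the exception in PD1+ Tconv, at 1857 CPM in replicate 1 and 1543 in replicate 2, and Rpl41 had the widest ratio (993 and 3653 CPM). PD1+ Tconv 2 is also the library with 283091 CPM of gland genes, whose part in this was not tested. Without PD1+ Tconv 2 the median difference of NK1.1+ ILTCk from PD1+ Tconv was 0.29 and that of NK1.1- ILTCk 0.40, and without PD1+ Tconv 1 they were -0.74 and -0.64. The sign of both medians thus rests on which PD1+ Tconv library is kept. Between the ILTCk groups the median was -0.40 without NK1.1- ILTCk 1 and 0.26 without NK1.1- ILTCk 2.

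The genes named here for the tumour table had the smallest p among members whose groups did not overlap, at most 5 each way per comparison. With that limit they do not show how the subunits were spread among the 10 members lower in NK1.1+ ILTCk than in PD1+ Tconv. Of the 77 canonical genes, 46 belong to the large subunit. Rpl4 was at 1857 and 1543 CPM in PD1+ Tconv, 1348 and 1962 CPM for NK1.1- ILTCk and 1313 and 725 CPM for NK1.1+ ILTCk. NK1.1+ ILTCk was below both other groups (-0.74 ± 0.51 against PD1+ Tconv, adjusted p 0.568, and -0.70 ± 0.51 against NK1.1- ILTCk, adjusted p 1.00). Rpl21 was at 391 and 720 CPM in PD1+ Tconv against 341 and 263 CPM for NK1.1+ ILTCk (-0.88 ± 0.49, adjusted p 0.476), and Rpl17 at 328 and 636 against 298 and 218 (-0.90 ± 0.52, adjusted p 0.486). Rpl5, which carries the 5S RNA into the large subunit and binds Mdm2 when assembly fails, was at 787 and 1258 CPM against 776 and 533 (-0.64 ± 0.49, adjusted p 0.607). Rpl13a, known for a role in interferon-γ-dependent translational silencing, was at 64.1 and 92.3 CPM in PD1+ Tconv, 60.0 and 54.3 CPM for NK1.1+ ILTCk and 56.8 and 62.9 CPM for NK1.1- ILTCk, with PD1+ Tconv above both by a small margin (-0.45 ± 0.36, adjusted p 0.624, and -0.39 ± 0.36, adjusted p 0.696).

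Rpl7l1 was the one member above PD1+ Tconv in both ILTCk groups without overlap. It was at 61.2 and 74.3 CPM in PD1+ Tconv, 88.4 and 124 CPM for NK1.1- ILTCk and 87.1 and 133 CPM for NK1.1+ ILTCk. The log2 fold changes were 0.65 ± 0.40 (adjusted p 0.549) and 0.70 ± 0.40 (adjusted p 0.480), and neither passed. Rps4l had 9 and 32 counts in PD1+ Tconv, 54 and 12 for NK1.1- ILTCk and 69 and 62 for NK1.1+ ILTCk, whose log2 fold changes were 1.44 ± 1.12 against NK1.1- ILTCk (adjusted p 1.00) and 1.06 ± 1.12 against PD1+ Tconv (adjusted p 0.729). Counts of a processed copy can include reads of its parent, Rps4x, which was at 1609 to 2704 CPM in these libraries.

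The stalk genes and Rpsa varied as much between replicates as between groups. Rplp0 was at 2477 and 4000 CPM in PD1+ Tconv, 2405 and 3826 CPM for NK1.1- ILTCk and 2670 and 3274 CPM for NK1.1+ ILTCk, and all 3 ranges overlapped. Rplp1 was at 971 and 3039, 1114 and 1661, and 1584 and 1471 CPM in the same order, and Rplp2 at 482 and 1132, 445 and 608, and 612 and 493. Within NK1.1+ ILTCk, Rplp0 was higher in replicate 2 and the other 3 genes were higher in replicate 1. Rpsa, the small-subunit protein also known as a laminin receptor, was at 1809 and 4620, 2056 and 3088, and 2699 and 2373 CPM in that order too (-0.34 ± 0.60 for NK1.1+ ILTCk and -0.32 ± 0.60 for NK1.1- ILTCk against PD1+ Tconv, adjusted p 0.846 and 0.868).

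The paralogues were set against their partners within each library, a ratio that TMM scaling does not touch. Rpl22l1 held 39.9 and 43.6 counts per 100 Rpl22 counts in CD8SP, 8.52 and 27.7 in ILTCkP, 53.1 and 46.4 in PD1+ Tconv, 42.6 and 43.9 for NK1.1- ILTCk and 33.7 and 38.9 for NK1.1+ ILTCk. Both ILTCkP values were the lowest of the 10, and PD1+ Tconv the highest. The transcript used for Rpl22l1 has a GC content of 40.6%, below the lowest canonical gene at 41.3%, and that of Rpl22 47.3%. For Rpl7l1 and Rpl7, whose ratio follows, GC was 49.2 and 45.8%. For Rps27l and Rps27 it was 44.9 and 50.7%, with a ratio that was higher in ILTCkP. The part of base composition in the paralogue ratios was not tested. Rpl7l1 per 100 Rpl7 was 29.5 and 29.6 in CD8SP, 68.1 and 43.7 in ILTCkP and 4.30 to 11.7 in the tumour table, so the highest values were those of ILTCkP. Rps27l, a p53 target, held 36.1 and 35.8 counts per 100 Rps27 in CD8SP, 53.7 and 60.3 in ILTCkP, 13.3 and 18.6 in PD1+ Tconv, 48.6 and 34.1 for NK1.1- ILTCk and 22.1 and 54.8 for NK1.1+ ILTCk. Rps27l itself did not differ past the test (0.06 ± 0.28 in ILTCkP against CD8SP, adjusted p 0.926). Its level in the tumour table was 125 and 401 CPM in PD1+ Tconv, 315 and 368 CPM for NK1.1- ILTCk and 214 and 385 CPM for NK1.1+ ILTCk. Rps27 was at 938 and 2154, 647 and 1079, and 969 and 703 CPM there, so both genes entered the differences in the ratio. Rpl3l, known from heart and skeletal muscle, had 0 counts in all 4 thymic libraries, which allows up to 3 counts in each, and 0 to 15 in the tumour table, and Rpl39l had 0 to 9 there.

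**Figure D4:**
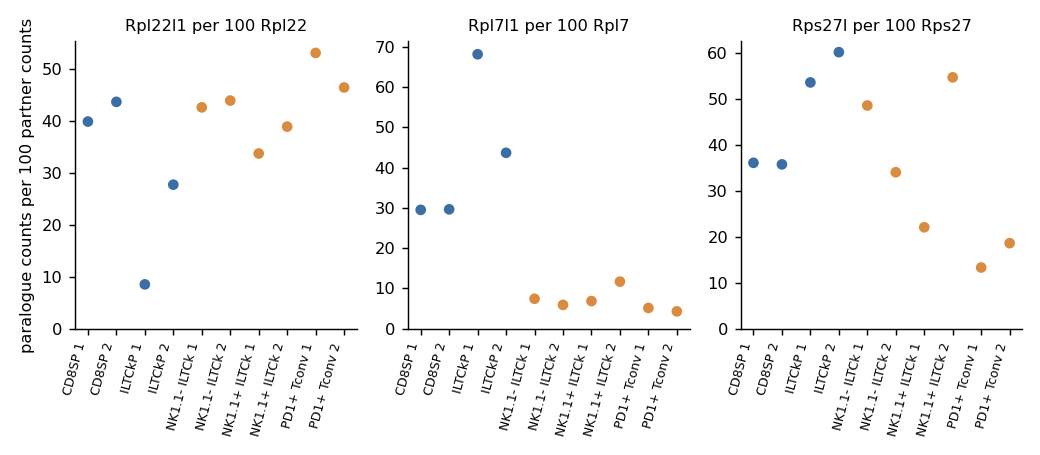
Counts of 3 paralogues per 100 counts of their partner, 1 point a library (blue, thymic table; orange, tumour table). Rpl22l1 is lowest and Rpl7l1 and Rps27l are high in the ILTCkP libraries, with 8.52 and 27.7 per 100 for Rpl22l1.

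Levels within the family were uneven. Levels per kilobase of a reference transcript were taken from unscaled CPM. Rpl41, whose protein is the shortest of the ribosome, was highest in the tumour table, at a mean of 4514 CPM per kilobase. Rplp1 (3149) and Rps27 (3004) came next. In the thymic table Rpl41 had only 805, and Rpl32 (1928), Rplp0 (1783) and Rps9 (1691) were highest. Among all members Rpl3l, Rpl39l and Rps4l were lowest. Rpl13a (45.9 to 68.5 CPM per kilobase over the 10 libraries) and Rpl24 (61.5 to 125) were low among canonical genes. In the thymic table Rpl17 (mean 16.7) and Rpl39 (45.6) were lower than Rpl13a (52.5), without the counts of their pseudogenes. Rps15a and Rps20 also came out low, but their annotated transcripts are 5130 and 3706 bases long, mostly outside the coding sequence, so their values per kilobase are too low where shorter forms are made. The SD of log2 CPM per kilobase over the canonical genes was 1.34 to 1.41 in CD8SP and ILTCkP 2, 1.67 in ILTCkP 1 and 1.06 to 1.18 in the tumour table. By count, Rplp0 led all 4 thymic libraries, at 6.90 to 10.6% of member counts, with Rpl4 second. In the tumour table Rplp0 or Rpsa led, at 3.62 to 4.82%, and 20 to 22 genes made up 50% of the member counts, against 12 to 15 in the thymic table.

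Set side by side on unscaled CPM, most but not all genes were higher in the tumour table. The ratio of the table means had a median of 3.39 over the 77 canonical genes and ran from 0.740 (Rpl4) to 28.1 (Rpl17, 6.90 with the counts of its pseudogenes added, as described below). For 64 of the 77 all 6 tumour-table libraries were above all 4 thymic ones, for 13 the ranges overlapped and for 0 they were below. Rpl17 had means of 12.9 and 363 CPM, Rpl39 27.9 and 609 (ratio 21.8), Rps27a, which makes a ribosomal protein fused to ubiquitin, 64.4 and 1294 (20.1), Rpl30 86.9 and 878 (10.1) and Rps12 58.1 and 533 (9.17). Near or below 1 were Rpl4 (2008 and 1486 CPM), Rps9 (1270.3 and 1393 CPM), Rpl24 (1.16), Rpl13a (1.17), Rpl8 (1.19), Rpl14 (1.20) and Rplp0 (1.26). Rpl7l1 was lower in the tumour table (212 and 94.8 CPM, ratio 0.447), without overlap, as were, by their means, the retrocopies Rps3a2 (0.438) and Rps4l (0.453). By transcript length the median ratio was 4.58 over 18 genes under 500 bases, 3.20 over 19 of 500 to 700, 3.42 over 22 of 700 to 1000 and 2.64 over 18 above 1000. It did not fall steadily, and the ranges overlapped widely (1.57 to 9.17 under 500 bases, 0.740 to 7.16 above 1000). The longest class takes in Rps15a and Rps20, and pseudogene counts were not added. No test joins the tables.

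**Figure D5:**
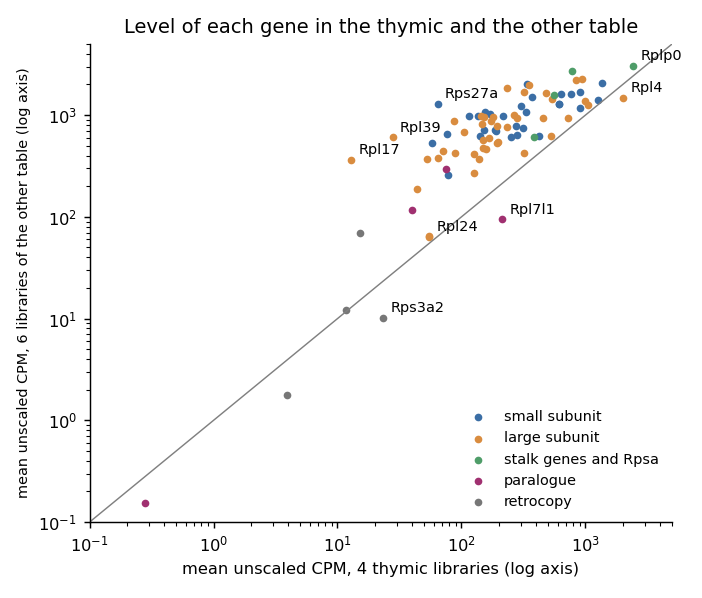
Mean unscaled CPM of each member in the 4 thymic (horizontal) and 6 tumour-table libraries (vertical), both axes logarithmic; the line marks equal levels and Rpl3l, at 0 in the thymic table, is not drawn. Most canonical genes lie above the line, Rpl17, Rpl39 and Rps27a farthest when pseudogene rows are not counted, while Rpl4 and Rpl7l1 lie below it.

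Rows of processed pseudogenes bear on these ratios, because reads of a parent and its copies can be assigned differently. The tables held 277 rows named as pseudogenes of 60 members. Together they had 6.40 to 6.68 counts per 100 member counts in the thymic and 3.00 to 3.18 in the tumour libraries. For Rpl17 they had 474 counts per 100 parent counts in the thymic table but 40.2 in the other, for Rpl39 31.5 and 3.49, and for Rpl19 69.2 and 3.23. The ratio was higher in the thymic table for 41 of 58 canonical parents, and others went the opposite way, such as Rpl21 (1.22, then 43.5 for the tumour libraries), Rpl7a (2.81 and 12.5) and Rpl35a (0.258 and 5.59). In the thymic table most counts of Rpl17 and its copies together lay in the copies. With the copies added to each parent, the ratio of the table means was 6.90 for Rpl17, in place of 28.1, and Rps27a (19.8), Rpl39 (17.2) and Rpl30 (10.1) were highest. The median was 3.24, and the tumour table still lay above for 64 of 77 genes. The whole share of counts, with these rows added, was 2.94 to 3.30% in the thymic and 6.19 to 9.66% in the tumour libraries.

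Other genes of ribosome production and translation were mostly not called either. Among 78 genes of the mitochondrial ribosome, which is built from other proteins, 0 were called in any comparison, and their medians were -0.03, 0.14, 0.17 and 0.02 in the order ILTCkP against CD8SP, NK1.1+ ILTCk and NK1.1- ILTCk against PD1+ Tconv, and NK1.1+ against NK1.1- ILTCk. In the 2 comparisons with PD1+ Tconv they lay above 0, where the cytosolic genes lay below it. Without PD1+ Tconv 2 the cytosolic medians were 0.29 and 0.40. The PD1+ Tconv libraries differed for the mitochondrial genes too, with sums of 2987 CPM in replicate 1 and 4790 in replicate 2. In the ILTCk libraries these sums were 3749 to 4858 CPM. The summed level of the mitochondrial genes, TMM-scaled within each table, was 5130 to 5659 CPM in the thymic and 2987 to 4858 in the tumour libraries. It was lower in each tumour-table library, where the cytosolic genes held a larger share of all counts. The 67 ribosome biogenesis factors had the same direction between tables as the mitochondrial genes. On the same scale they were at 8366 to 9747 CPM in the thymic and 3363 to 4215 in the tumour libraries. None was called, against the same shares of all genes, with medians of -0.13, -0.10, 0.04 and -0.16. Ncl, nucleolin, had the largest difference among those named, at -0.85 ± 0.27 in ILTCkP against CD8SP (adjusted p 0.151) and -1.64 ± 0.55 in NK1.1+ ILTCk against PD1+ Tconv (adjusted p 0.267).

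Host genes of snoRNAs, whose introns yield the RNAs that guide rRNA modification and whose messages are TOP messages too, mostly had lower values in ILTCkP. Of 11 tested, 10 had a negative log2 fold change, with a median of -0.63, and the groups did not overlap for 9, all lower in ILTCkP (81.8%, against 29.3% of all genes), while 0 were called (against 4.71%). Below 0 were 90.9%, against 49.7% of all genes. Gas5 was at -1.13 ± 0.44 (adjusted p 0.216) and Snhg1 at -1.52 ± 0.50 (adjusted p 0.162). The summed level was 341 and 335 CPM in CD8SP and 158 and 224 in ILTCkP, with ILTCkP 1 lowest. In the 12 other TOP genes the median was -0.27, with Npm1, nucleophosmin, at -1.31 ± 0.44 (adjusted p 0.163). Elongation factors had a median of 0.12, with Eef2 at 0.96 ± 0.33 (adjusted p 0.170), initiation factors one of -0.11 over 33 genes, and the RNA polymerase I machinery one of 0.13 over 20.

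In the group of mTOR and Myc regulators 0 of 24 were called in ILTCkP against CD8SP (0%, against 4.71% of all genes), with a median of 0.23. Myc, which drives transcription of ribosomal protein genes, was at 557 ± 98.9 CPM (SD, n = 2) in ILTCkP and 316 ± 28.4 in CD8SP (0.82 ± 0.23, adjusted p 0.110, edgeR). Of 9 p53 and ribosome stress genes tested, 1 was called (11.1%, against 4.71% of all genes): Sesn2, an inhibitor of mTORC1 that amino acid shortage and p53 induce, rose from 11.5 ± 0.182 CPM (SD, n = 2) to 64.0 ± 8.86 (log2 fold change 2.48 ± 0.29, adjusted p 0.0121, edgeR). Bax (0.55 ± 0.21, adjusted p 0.200) and Trp53 (0.42 ± 0.27, adjusted p 0.402) did not pass. In the comparisons of the tumour table the test called 0 of 18091 genes, so none of these lists could hold a called gene there. Rack1, Fau and Rpl36al, which the symbol rule did not take in, were not called in any comparison. With TMM scaling within each table, Rack1 was at 738 to 1120 CPM in the thymic libraries against 959 to 2395 CPM in the others. Fau was at 230 to 342 and 659 to 1957, and Rpl36al at 60.9 to 89.2 and 199 to 408, in that order.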

How the data were processed

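The deposited values were whole-number read counts per gene in 2 tables of mouse gene symbols, described as raw counts per the labels. The genome was mm10 and the authors used DESeq, whose version is not stated, per the submitters' processing notes. The aligner, counting program, strand setting and annotation were not stated in the labels used here, so reads shared between near-identical copies may be split in ways that cannot be traced. The 4 single-cell libraries were not analysed here.

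Each table was fitted alone with edgeR 4.0.16 in R 4.3.3: filterByExpr, TMM scaling, glmQLFit with robust estimation, glmQLFTest, and Benjamini-Hochberg adjustment over all genes tested, with a call at an adjusted p under 0.05. All 6 libraries of the tumour table shared 1 fit. Levels within a table are TMM-scaled CPM, and members set across the tables and levels per kilobase are in unscaled CPM. Summed lists and genes outside the members are TMM-scaled within each table, also where both tables are quoted. Transcript length and GC came from 1 principal GENCODE M21 transcript a gene (GRCm38) and promoters from RefSeq. Members and lists were chosen with earlier results of these data known. Named were the paralogues and partners, stalk genes and Rpsa, up to 5 members each way per comparison with the smallest p among those whose groups did not overlap, the extremes of CPM per kilobase, and up to 4 genes of a list by p. Members named for their levels between tables, or called in an alternative, were chosen after their values were seen. Alternatives were RLE and upper-quartile scaling, scaling without the members, DESeq2 1.42.0, limma-voom (limma 3.58.1), other filters, a replicate block, pseudogene counts added to parents, the compared libraries alone, and each library left out. The fits were tested on simulated data.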

Additional observations from a re-analysis of the deposited data

How the results depend on the processing

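The count of ribosomal protein genes called in ILTCkP against CD8SP, 0 in the main analysis, was 0 with RLE or upper-quartile scaling, scaling without the members, limma-voom, at least 50 counts in 2 libraries and pseudogene counts added to parents. It was 1 with DESeq2 (1.18%, against 13.6% of all genes), 2 with no filter on low counts (2.35%, against 10.8%) and 2 with a replicate block (2.35%, against 15.1%), and it ran from 0 to 43 when 1 library was left out. In the 3 comparisons of the tumour table it was 0 under every alternative run with both libraries of each group. Most of these runs called 0% of all genes too, so the 0 for members says little there. In NK1.1+ ILTCk against PD1+ Tconv the count over all genes reached 1269 with DESeq2 (7.01%) and 1249 with no filter (3.91%). Leaving out 1 library moved the median log2 fold change from -0.18 to -0.012 in ILTCkP against CD8SP, from -0.74 to 0.29 in NK1.1+ ILTCk and from -0.64 to 0.40 in NK1.1- ILTCk against PD1+ Tconv, and from -0.40 to 0.26 between the ILTCk groups; NK1.1- ILTCk was also at 0.10 without its replicate 1. The cause was not tested. Every other alternative kept the sign of these medians. Same-numbered libraries deviated together with a correlation of 0.09 in the thymic table and 0.32 to 0.36 in the tumour table. With only 2 numbered pairs a comparison and no label that ties a number to an animal or day, the numbers were not taken as pairs. The replicate block called 2212 genes in the thymic comparison and 755, 298 and 0 in the tumour comparisons. The mean share of counts was 3.28% in CD8SP and 3.08% in ILTCkP with pseudogene rows, and 3.04% in CD8SP over canonical rows alone. With the 50 most abundant other rows taken out of the total it was 11.3% in PD1+ Tconv, 10.6% for NK1.1- ILTCk, 3.64% for CD8SP and 3.48% for ILTCkP. PD1+ Tconv then lay above NK1.1- ILTCk, the reverse of the order in the main analysis. From the single library that remained when the other was left out, it was 6.56 to 8.89% in PD1+ Tconv, 6.01 to 8.42% for NK1.1+ ILTCk, 7.10 to 9.36% for NK1.1- ILTCk, 3.06 to 3.09% for CD8SP and 2.76 to 3.02% for ILTCkP.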
